A study of Mus musculus with 16 samples.

Results

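Type B intercalated cells were taken from single-cell RNA counts of mouse kidney suspensions as the barcodes with at least 3 unique molecular identifiers (UMIs, each marking 1 captured RNA molecule) of Slc26a4, more of these than of Slc4a1 and Aqp6 together, and no UMI of Cubn, Pecam1, Pdgfrb or Ptprc. Members were thus chosen by measured UMIs of 7 genes. There were 5188 of them among 94436 barcodes that passed a filter on detected genes (200 to 7000) and on mitochondrial UMIs (50% or less), out of 116439 deposited. The kidneys came from BTBR ob/ob mice (DN), which lack functional leptin and become obese and hyperglycaemic, and from BTBR mice with 2 intact leptin alleles (control). Females and males of each genotype were taken at 6 and at 12 weeks of age, with 2 mice and 2 libraries in each of the 8 groups. The study treated the younger age as the onset and the older as the early stage of diabetic nephropathy and asked which kidney cells change. Mice of both genotypes also carried a ROSA26 tdTomato/EGFP reporter and a Cre transgene that is driven by a podocyte promoter and so is not meant to act in intercalated cells. Both kidneys of a mouse were pooled without the papilla, a Percoll gradient removed part of the proximal tubule, and the tissue was dissociated with a cold-active protease, so shares of cells are shares of an enriched suspension.

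Type B intercalated cells sit among the principal cells of the connecting tubule and cortical collecting duct. They secrete bicarbonate and take up chloride through pendrin, the apical anion exchanger encoded by Slc26a4, and they place the proton pump (V-ATPase) mainly on the blood side. Type A cells do the reverse: they pump protons into the urine and return bicarbonate to the blood through the exchanger encoded by Slc4a1. Both types depend on the transcription factor Foxi1 and share most pump subunits, so type A cells were the nearest class for comparison.

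The 16 libraries held 10510855 to 125551519 UMIs, and 91 (DN female 6 weeks replicate 1) to 624 (control male 12 weeks replicate 2) type B cells each. Libraries fell into 2 sets by the cell barcodes they shared: 12 libraries on one list and 4, replicate 1 of each female group, on another, with at most 21728793 UMIs. The study's methods name 2 versions of the droplet kit without saying which library had which, and the barcode sets were not matched to a version here. Control male 6 weeks replicate 2 stood apart by its shallow barcodes, with a median of 634 UMIs per filtered barcode against 2138 or more elsewhere, although its type B sum held 7382145 UMIs. Of the 120 pairs of libraries, 1 shared the barcode of a member, and it shared 1.

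The limits of the rule cut through a continuum. Members held a median of 21 Slc26a4 UMIs (quartiles 9 and 34, highest 156). Just inside the limit were 278 members with 3 UMIs, and just outside were 426 barcodes with 2 and 2067 with 1. Of 7083 filtered barcodes with at least 3 UMIs, 433 were lost to the type A genes and 1462 to the genes of other lineages, 929 of them with Ptprc. These values chose the members and are a description.

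The other 3 markers of type B cells, which the rule did not use, were found in most members. Hmx2, a homeobox factor (chr7:131548773-131558014, plus strand), had a UMI in 93.0% of members (95% Wilson interval 92.3% to 93.7%, counting error only). It had one in 8.38% of type A, 2.81% of principal and 3.46% of proximal tubule cells, classes that should lack it, where a UMI can come from free RNA. Library medians of depth were 6176 to 29031 UMIs in members, 4177 to 14939 in principal and 4481 to 25709 in proximal tubule cells. Insrr, a receptor tyrosine kinase that responds to alkaline pH (chr3:87796951-87816101, plus strand), had a UMI in 92.9% of members and 11.8% of type A cells. Hepacam2, an immunoglobulin-type membrane protein (chr6:3457096-3498298, minus strand), had one in 94.0% of members and 81.2% of type A cells, so it marks intercalated cells of both types. With every barcode thinned to 1000 UMIs the shares for Hepacam2 were 32.1% and 15.6%, and those for Hmx2 40.8% and 1.26%. All 3 were found in 4379 members (84.4%) and none in 54 (1.04%), 47 of which were among the 522 members with 3 or 4 Slc26a4 UMIs. Those shallow members had a median of 5711 UMIs against 31538 in members with at least 50 Slc26a4 UMIs, of which 98.2% had all 3 markers.

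**Figure D1:**
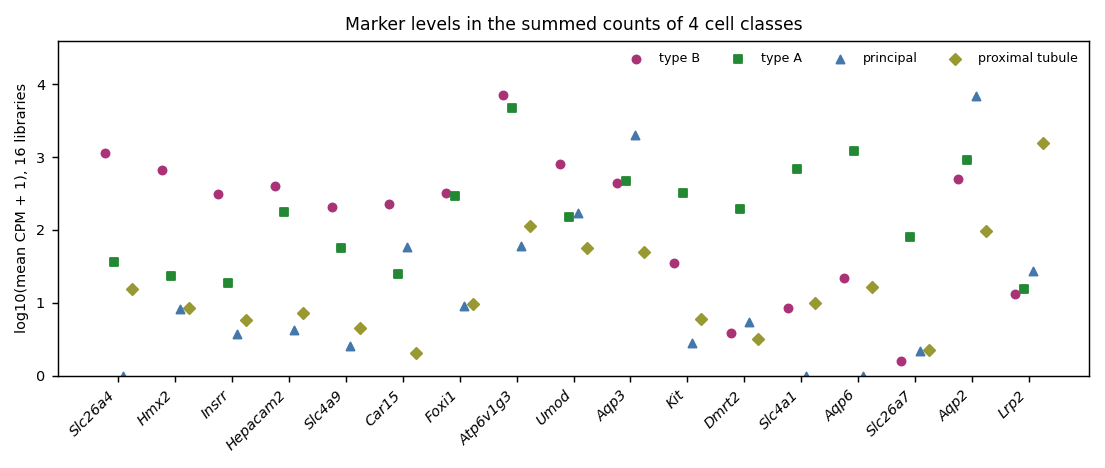
Mean level of 17 genes in the summed counts of type B, type A, principal and proximal tubule cells, as log10(mean CPM + 1) over 16 libraries (CPM, the UMIs of a gene scaled to a sum of 1000000 UMIs). Hmx2 and Insrr stand above every other class in type B, Atp6v1g3 is high in both intercalated types, and Slc26a4, Slc4a1, Aqp6 and Aqp2 were used to choose the classes.

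Members carried some RNA of other classes. A UMI of Slc4a1 or Aqp6 was found in 1118 members (21.6%), and 1348 (26.0%) had at least 3 UMIs of Aqp2, Slc12a3, Slc12a1 or Lrp2. The latter had a median of 29844 UMIs against 16773 in the other members. Dmrt2, a transcription factor of type A cells, was in 2.41% of members and 81.7% of type A cells, and Kit in 21.5% and 88.3%. Aqp2, the water channel of principal cells, had a UMI in 48.9% of members, in 55.7% of type A and in 41.3% of proximal tubule cells, and at 1000 UMIs the shares were 15.6%, 23.0% and 5.10%, against 90.9% of principal cells, which were chosen on this gene. Aqp3, the water channel of the basolateral membrane, had a UMI in 92.7% of members, 81.0% of type A, 38.0% of proximal tubule and 87.9% of principal cells. At 1000 UMIs it was found in 30.5% of members and 24.95% of type A cells against 4.12% of proximal tubule cells and 69.3% of principal cells. Calb1, a connecting tubule marker, had a UMI in 62.6% of members, 64.9% of type A, 49.2% of proximal tubule and 88.0% of principal cells.

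Beyond the markers, the genes that stood highest in type B over type A sums included the unnamed transcript 4930469K13Rik (mean 75.1 against 1.26 CPM), the insulin-like growth factor binding protein Igfbp5 (878 against 43.9 CPM), the pyrophosphate transporter Ank (74.4 against 2.40 CPM) and the vesicle protein Syt7 (78.4 against 2.79 CPM). Each was higher in type B in 16 of 16 libraries. The Notch ligand Jag1 (145 against 32.8 CPM) was also higher. Among the genes far lower than in type A were the anion exchanger Slc26a7 (0.595 against 79.7 CPM), the adhesion receptor Adgrf5 (28.6 against 817 CPM) and the membrane protease Mme (67.4 against 940 CPM). These differences follow from a choice of cells made on 3 of the genes measured and are given without a test. Car15, a membrane-bound carbonic anhydrase, averaged 228 CPM in type B and 23.9 in type A, but its level went with the barcode set: it was 561, 1125, 554 and 977 CPM in the 4 libraries of the smaller set and 23.5 to 62.5 in the other 12.

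Uromodulin, a protein known from the thick ascending limb, was part of the type B profile. Umod (chr7:119462711-119479282, minus strand) had a UMI in 83.6% of members, against 40.5% of type A, 20.2% of principal and 24.02% of proximal tubule cells. At 1000 UMIs the shares were 37.6%, 6.83%, 4.97% and 2.59%. Slc12a1, the other thick ascending limb marker fixed here, had a UMI in 7.94% of members. In the summed counts Umod averaged 811 CPM in type B, 150 in type A and 874 in all other filtered barcodes, which include the thick ascending limb itself.

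The genes of bicarbonate and chloride transport were then followed across the samples, since they do the work of the cell. Slc26a4 itself was at 858 to 1365 CPM in control sums, with a median of 1112, and at 801 to 1483 CPM in DN, with a median of 1118. The groups overlapped throughout, and because the gene chose the cells no test was made. Hmx2 ran from 477 to 999 CPM in control (median 605) and from 328 to 987 in DN (median 673). Its 4 highest values, 965, 999, 987 and 921 CPM, were those of the smaller barcode set. Insrr ran from 267 to 386 CPM (median 328) in control and from 241 to 386 (median 294) in DN. Hepacam2 ran from 240 to 526.4 CPM (median 404) in control and from 285 to 555 (median 436) in DN. For these 3 the log2 change in DN over both ages was -0.02 ± 0.12, -0.06 ± 0.09 and 0.19 ± 0.11 (estimate ± SE, 8 against 8 libraries), with adjusted p of at least 0.789 in edgeR's quasi-likelihood test with Benjamini-Hochberg adjustment. The sum of the 4 type B markers was 1898 to 2736 CPM in control and 2378 to 2833 in DN at 6 weeks, and 2319 to 2703 and 2152 to 2905 at 12 weeks.

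Of the 30 transport and acid-base genes on the fixed list, 27 passed the filter on low counts and none was called in DN over both ages (adjusted p under 0.05). The lowest adjusted p was 0.517, and 1 of the 27 was under 0.05 unadjusted, as were 952 of the 12093 genes tested. Over all genes 84 of 12093 were called, or 0.695%. The median log2 change of the list was -0.04, against -0.01 over all genes tested, and the range was -0.68 to 0.68. Slc4a9, the basolateral exchanger of type B cells, was at 57.9 to 285 CPM in control and 46.0 to 283 in DN, with a log2 change of -0.16. Its lowest values, 57.9 and 46.0 CPM, were in replicate 1 of the control and DN females at 12 weeks, both of the smaller barcode set. The carbonic anhydrases Car2 (-0.08), Car12 (-0.30), Car15 (0.21) and Car4 (-0.40), the chloride channel subunit Bsnd (-0.11), and the endosomal exchangers Clcn3 (0.07) and Clcn5 (-0.05) were all uncalled. So were the ammonia transporters Rhbg (0.04) and Rhcg (-0.17), the anion exchangers Slc4a2 (-0.04), Slc26a11 (-0.04) and Slc26a7 (-0.68), and the sodium-coupled transporters Slc4a8 (0.12) and Slc4a7 (0.28). The potassium channel subunits Kcnj10 (-0.36) and Kcnj16 (-0.12), the pump subunits Atp1b1 (0.06), Fxyd2 (0.00) and Atp12a (0.68), the cotransporters Slc12a2 (-0.06) and Slc12a7 (-0.11), and the scaffold Slc9a3r1 (0.03) were uncalled too. Cftr, Kcnma1 and Kcnk5 averaged 0.0546, 0.0219 and 0.309 CPM and were not tested.

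Of 22 V-ATPase genes 21 were tested and none was called in DN, with a median log2 change of -0.01, a range of -0.21 to 0.15 and a lowest adjusted p of 0.817. Atp6v1g3, a subunit of the pump of intercalated cells, averaged 7118 CPM in type B and 4707 in type A, and Atp6v1c2 averaged 818 and 542. None of 19 tested transcription factor and Notch genes of intercalated cells was called either, with a median of -0.05 and a lowest adjusted p of 0.0777. The lists for glucose use (22 tested, median 0.03), immediate early and dissociation genes (21 tested, median 0.07), NRF2 and endoplasmic reticulum stress (19 tested, median 0.10) and nuclear oxidative phosphorylation genes (90 tested, median -0.06) also held no called gene. In that order 3, 8, 3 and 3 were under 0.05 unadjusted by edgeR, against 952 of 12093 over all genes. The 13 genes of mitochondrially encoded proteins, whose UMIs the rule for members limits, had a median of -0.02, given without a test. The immediate early and dissociation genes reached a log2 change of 1.48, with a lowest edgeR adjusted p of 0.0779.

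**Figure D2:**
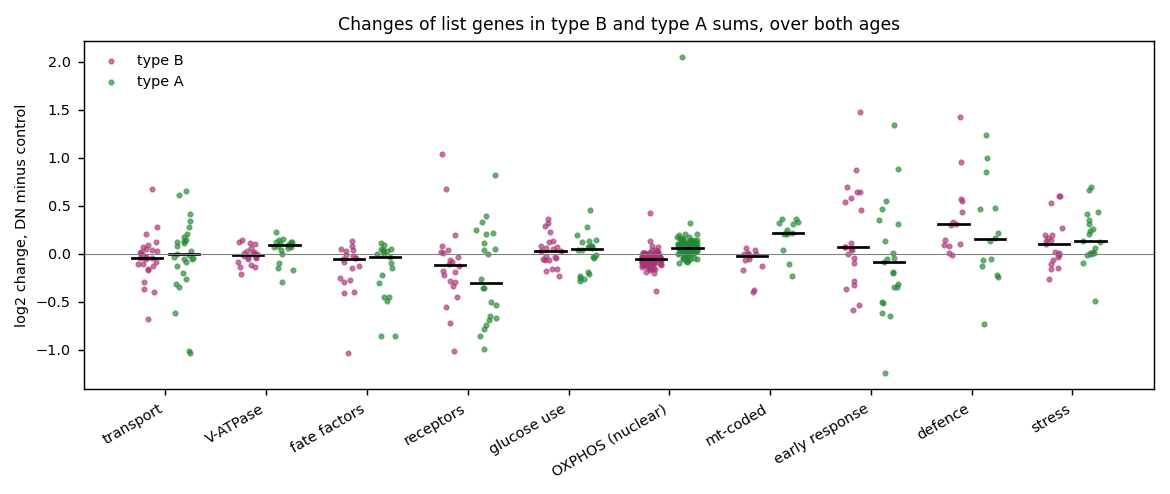
Log2 change in DN against control over both ages for each tested gene of 10 lists, in type B (magenta) and type A (green) sums, with black bars at the medians. The type B medians lie between -0.11 and 0.31, and the mitochondrially encoded genes centre on -0.02 in type B and 0.22 in type A.

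How many type B cells a suspension held was compared first. Type B cells were 4.73% ± 1.23 of the filtered barcodes in DN and 6.08% ± 2.21 in control (mean ± SD over 8 libraries each), which is -1.35 percentage points (exact permutation, two-sided, p 0.117, adjusted over 12 tests 0.469). At 12 weeks control libraries held 6.56%, 8.17%, 7.85% and 8.10%, and DN libraries 4.30%, 6.96%, 4.85% and 4.62%. The DN values lay lower except for DN female replicate 2, which overlapped the control range. Within the pairs of the same sex and replicate number DN was lower in 4 of 4. The difference at that age was -2.49 points (exact permutation p 0.111, adjusted 0.469, and the design allows no p below 0.0556). At 6 weeks it was -0.217 points (exact permutation p 0.944). Within the pairs of that age DN was lower in females (2.55% against 3.62%, and 4.41% against 7.37%). In males it was higher (4.71% against 4.26%, and 5.45% against 2.73%). Without control male 6 weeks replicate 2, the shallow library, the difference over both ages was -1.83 points with an exact permutation p of 0.0370, not adjusted. With any other single library left out, the exact permutation p was not under 0.05.

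Type B cells made up 47.8% ± 5.57 of type A and type B cells together in DN and 53.1% ± 5.33 in control (n = 8 each, exact permutation p 0.0926, adjusted 0.469). Leaving out control male 6 weeks replicate 2 gave -6.42 points with an exact permutation p of 0.0448, and leaving out DN male 12 weeks replicate 1 gave -6.37 points with 0.0417. No other single library left out gave an exact permutation p under 0.05. Over all the libraries left out in turn the difference ran from -6.42 to -3.85 points, and with every barcode thinned to 1000 UMIs it was -1.73 points (exact permutation p 0.573). With a limit of 20% mitochondrial UMIs in place of 50% the direction turned, to 11.2 points higher in DN (exact permutation p 0.0386). The library medians of depth in members averaged 18666 UMIs in DN and 18946 in control (exact permutation p 0.900).

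**Figure D3:**
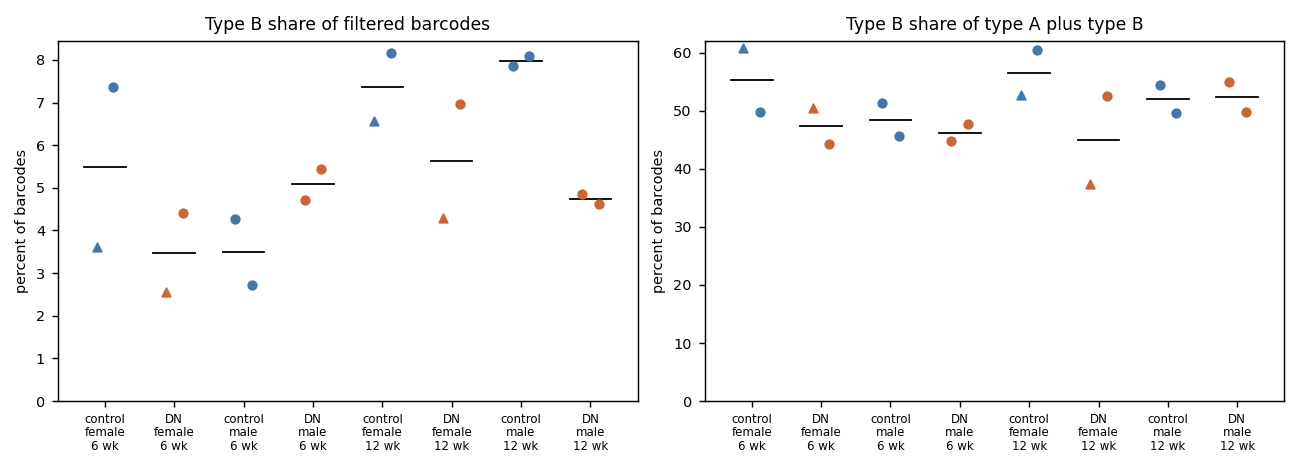
Percent of filtered barcodes that were type B (left) and type B percent of type A plus type B barcodes (right) in each library, control in blue and DN in orange, triangles for the smaller barcode set and bars for group means. At 12 weeks 3 of the 4 DN libraries lie below all 4 control libraries on the left, and the groups overlap on the right.

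The median mitochondrial percent of type B cells was on average 25.1% for DN and 24.9% for control mice. It is given without a test, since the rule for members limits it. In type A cells it was 27.5% ± 3.38 in DN and 23.3% ± 1.13 in control. Within a library the type B minus type A difference ran from -0.966 to 4.25 points in control and from -4.79 to -1.31 in DN, so the 8 DN libraries lay below the 8 control libraries without overlap. The means were -2.44 ± 1.37 and 1.56 ± 1.78 points, which differ by -4.00 points. This measure was chosen after its values were seen, and the rule for members limits mitochondrial percent, so it is a description with no test.

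Between DN and control over both ages, 52 genes were higher and 32 lower in type B cells. No label says that replicate numbers pair the samples. With libraries of the same sex, age and number taken as pairs and used as a block, 361 genes were called, 211 higher and 150 lower. Of the 52 higher genes, 22 were at least as abundant in type B as in the other filtered barcodes, and of the 32 lower genes 3 were, Chl1 and Chic1 among them, while 4250 of all 12093 tested genes were. The median ratio of the type B level to that of the other barcodes was 0.815 for the higher and 0.122 for the lower genes. In the other barcodes 45 of the 52 and 29 of the 32 moved in the same direction. Both sums came from the same libraries, and the share over all tested genes was not computed, so these counts have no background. With only genes at least as abundant in type B tested, an alternative set after the data were seen, 19 were called, 17 higher and 2 lower. Genes at least as abundant in type B are given first.

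**Figure D4:**
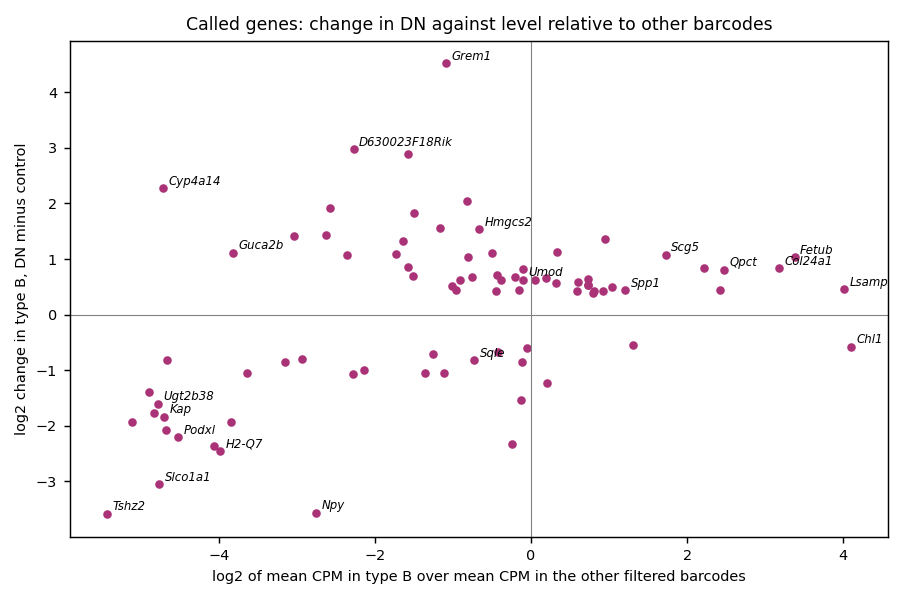
Log2 change in type B cells, DN minus control over both ages, against the log2 ratio of the mean type B level to the mean level in the other filtered barcodes, for 83 called genes. Most lower genes lie left of 0 on the horizontal axis, where other barcodes hold more of the RNA, whereas Fetub, Qpct, Scg5, Col24a1 and Lsamp lie right of it.

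Fetub, the secreted protease inhibitor fetuin-B (chr16:22918334-22939778, plus strand), was 10.4 times as abundant in type B as in the other barcodes. Control libraries held 16.9, 25.4 and 38.3 CPM (lowest, median, highest) and DN libraries 43.1, 50.2 and 73.5 CPM. Every DN library lay above every control library, at both ages and in both sexes. The log2 change was 1.03 ± 0.11 (adjusted p 7.33e-05 in edgeR's quasi-likelihood test with Benjamini-Hochberg adjustment). Fetub was the 1 higher gene among the 3 called at 6 weeks, with a log2 change of 1.07 there (adjusted p 0.0157) and 0.99 at 12 weeks (adjusted p 0.00391), by edgeR. The 6-week call ended without any of 5 libraries and in 10 settings in all. In type A cells, which held 7.86 CPM on average, the change was 1.36, and the difference between the types was not called (edgeR adjusted p 0.274).

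Scg5, the secretory granule chaperone 7B2 (chr2:113776362-113829121, minus strand), was at 260, 450 and 925 CPM in control and at 653, 1087 and 1173 CPM in DN (lowest, median, highest). The groups overlapped at 6 weeks through the 2 control females, at 925 and 785 CPM, and were apart at 12 weeks, where control reached 607 and DN began at 653 CPM. The log2 change was 1.07 ± 0.16 over both ages (edgeR adjusted p 0.00311). Qpct, which forms N-terminal pyroglutamate on secreted peptides (chr17:79051906-79090378, plus strand), was at 21.03, 35.9 and 59.9 CPM in control and 52.1, 56.5 and 74.97 CPM in DN. Of the control libraries, female 6 weeks replicate 1, at 59.9 CPM, lay within the DN range. The log2 change of Qpct was 0.80 ± 0.12 (edgeR adjusted p 0.00221). Col24a1, a fibrillar collagen chain, was at 6.45, 10.8 and 14.1 CPM in control and 15.7, 18.9 and 24.98 CPM in DN, again without overlap, with a log2 change of 0.83 ± 0.14 (edgeR adjusted p 0.00645). In type A cells the changes of Scg5, Qpct and Col24a1 were 1.03, 1.19 and 1.32, so they were not particular to type B.

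Several membrane and epithelial genes of the type B profile followed. Ptges, a prostaglandin E synthase, had a median of 44.3 CPM in control and 70.7 in DN and a log2 change of 0.63 ± 0.12. Krt18, a keratin of simple epithelia, had medians of 154 and 203 CPM and a change of 0.54 ± 0.11. Lsamp, a neural adhesion protein that was 16.1 times as abundant in type B as elsewhere, was at 36.8 to 72.7 CPM in control and 59.7 to 99.9 in DN, with overlapping ranges and a change of 0.46 ± 0.09. Tshr, the thyrotropin receptor, changed by 0.45 ± 0.10, and Ctsc, the lysosomal protease cathepsin C, by 0.59 ± 0.11. Chl1, another neural adhesion protein, went the other way, from 20.4 to 38.5 CPM in control to 9.19 to 26.5 in DN (-0.58 ± 0.12). The adjusted p of these 6 genes lay between 0.011 and 0.0396 in edgeR's quasi-likelihood test with Benjamini-Hochberg adjustment. In type A cells Tshr changed by 0.68, Ctsc by 0.36 and Chl1 by -0.94. Ptges, Krt18 and Lsamp changed there by -0.06, 0.19 and -0.49, and for these the difference between the types was called.

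Umod rose in type B cells of DN kidneys, and its mean in the other barcodes was lower in DN than in control. Control sums held 430, 605 and 1061 CPM and DN sums 746, 916 and 1423 CPM (lowest, median, highest). At 12 weeks the control libraries lay between 430 and 611 CPM and the DN libraries between 746 and 1423, without overlap; at 6 weeks control females at 802 and 1061 CPM overlapped DN. The log2 change was 0.63 ± 0.12 over both ages (edgeR adjusted p 0.0178) and 0.88 at 12 weeks (edgeR adjusted p 0.0289). In type A cells it was -0.17, and the difference between the 2 types, 0.88 ± 0.13, was called (edgeR adjusted p 0.00029). In the other filtered barcodes the mean was 1150 CPM in control and 599 in DN. The thick ascending limb markers Umod and Slc12a1, a sum that includes Umod itself, were at 1019 to 1522 CPM in those barcodes in control and at 490 to 986 in DN at 12 weeks. The part of thick ascending limb RNA in the type B level of Umod was not tested. The exons of Umod overlap those of the antisense gene Gm44588, and reads of the 2 cannot be told apart if strand was not used in counting.

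**Figure D5:**
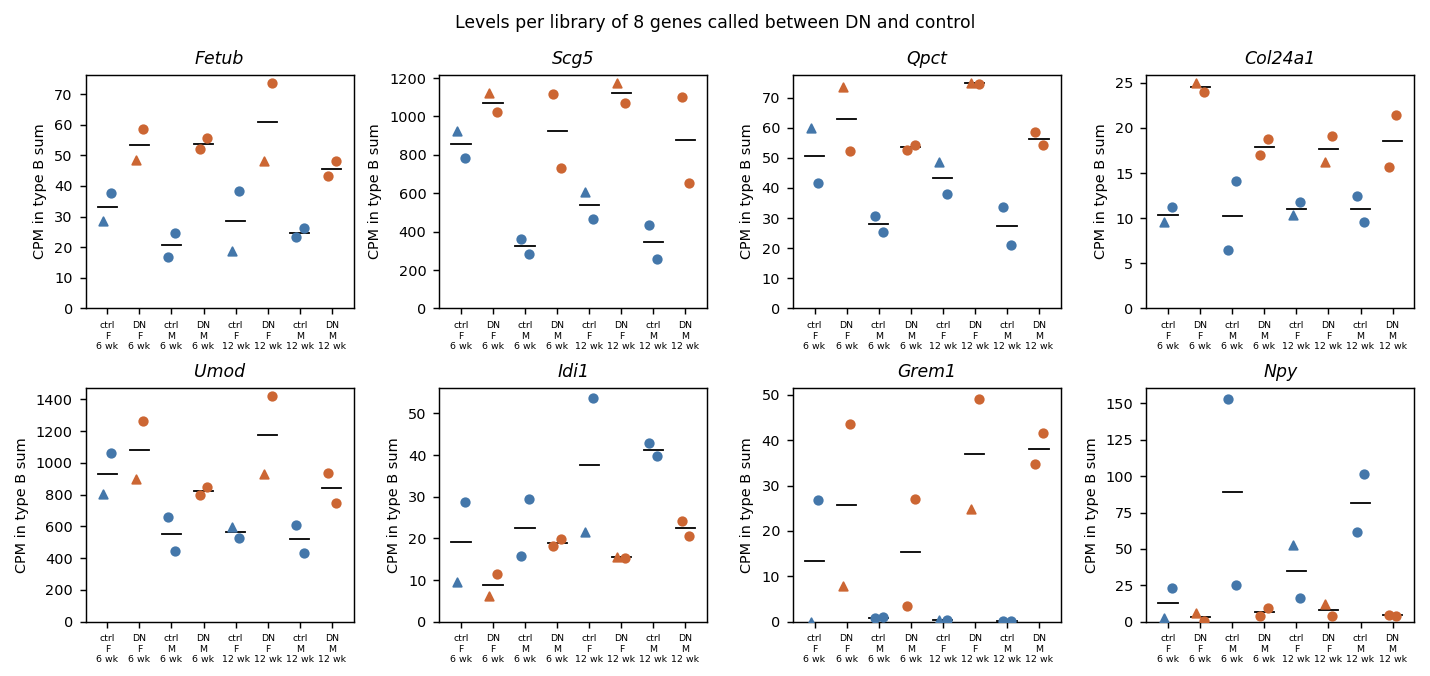
CPM in the type B sum of each library for 8 genes called between DN and control, control in blue and DN in orange, triangles for the smaller barcode set and bars for group means. For Fetub every DN library is above 43 CPM and every control library below it, and Grem1 is under 1 CPM in all 4 control libraries at 12 weeks and at 24.8 CPM or more in DN.

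Among the lower genes were a few of sterol synthesis, each found after its values were seen and each below the level of the other barcodes, at 0.604 (Sqle), 0.749 (Mvk), 0.920 (Idi1) and 0.964 (Msmo1) times. Sqle, squalene epoxidase, changed by -0.82 ± 0.16, with a median of 13.7 CPM in control and 8.43 in DN. Idi1, isopentenyl diphosphate isomerase, changed by -0.85 ± 0.16, from a median of 29.1 to 16.8 CPM. Msmo1, a methylsterol monooxygenase, changed by -0.60 ± 0.13 and Mvk, mevalonate kinase, by -0.67 ± 0.14. The adjusted p of the 4 was 0.0162 to 0.0411 in edgeR's quasi-likelihood test with Benjamini-Hochberg adjustment. In type A cells the changes were 0.20, -0.26, -0.05 and -0.32. The difference between types was called for Sqle (-1.04 ± 0.14), Idi1 (-0.63 ± 0.11) and Msmo1 (-0.55 ± 0.13) with edgeR adjusted p of 3.5e-05, 0.000773 and 0.0174. Since no list of sterol genes was fixed, no count over the pathway is given.

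Of the fixed lists, innate defence held 2 called genes among 14 tested, Lcn2 and Spp1, both higher, where 0.695% of all genes were called, and a median log2 change of 0.31 against -0.01 over all genes. Spp1, osteopontin, was 2.31 times as abundant in type B as in the other barcodes, at 2775 to 5709 CPM in control and 3934 to 6682 in DN, and changed by 0.44 ± 0.10 (edgeR adjusted p 0.0491). Lcn2, an iron-binding defence protein, was at 0 to 6.89 CPM in control and 0 to 21.4 in DN and changed by 1.43 ± 0.32 (edgeR adjusted p 0.0457), while other barcodes held 36.5 CPM on average. Of 22 genes of the hormone receptor list, Adora1, an adenosine receptor at 1.24 to 3.39 CPM in control and 3.03 to 6.25 in DN, was called (1.04 ± 0.24, edgeR adjusted p 0.0467). Its exons overlap those of Mybph on the other strand, so reads of both may be counted together if strand was not used. These calls were not steady: Spp1 lost its call in 21 of the settings tried, Adora1 in 18 and Lcn2 in 17, and all kept their direction. No other both-age gene named by the rule lost its call when any 1 library was left out. With at most 20% mitochondrial UMIs in place of 50%, the calls over both ages of Scg5, Qpct, Guca2b, Myof, Pla2g7, Dapl1, Lpl, Cdkn1c, Keg1, Npy6r, Ces1f, Umod, Ptges and Gpx3 ended, with the same direction. Without the term for the barcode set those of Guca2b, Umod and Gpx3 ended, and in the 12 libraries of the larger set those of Umod and Ptges. The 12-week call of Fetub ended in 4 settings, each of these 3 and the one without members holding a UMI of Slc4a1 or Aqp6. Over both ages Umod lost its call in 4 settings in all, Ptges in 3 and Col24a1 in 1. Of the genes chosen after their values were seen, Msmo1 lost its call in 18 settings, among them the leaving out of any of 12 libraries, Chl1, Mvk and Tshr without any of 10, Lsamp of 7, Sqle of 6, Idi1 of 5, Krt18 of 2 and Ctsc of 1.

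The remaining leading calls were of genes with more RNA in other barcodes, and markers of other cells moved with some of them. Grem1, a secreted antagonist of bone morphogenetic proteins, was under 1 CPM in all 4 control libraries at 12 weeks and at 24.8 to 49.1 CPM in DN. At 6 weeks 1 control library, female replicate 2, held 26.8 CPM and the DN libraries 3.56 to 43.6. The log2 change was 4.52 ± 0.48 over both ages (edgeR adjusted p 7.33e-05). Grem1 averaged 129 CPM in principal cells, and in the other barcodes at 12 weeks it was at 0.186 to 2.44 CPM in control and 48.5 to 80.8 in DN. The 4 principal cell markers summed to 769 to 1579 CPM in type B cells of control and 1221 to 1927 of DN libraries at that age. Aqp3, which is among the 4, had a UMI in 92.7% of members. The part of principal cell RNA in the Grem1 result was not tested. D630023F18Rik behaved alike (2.98 ± 0.32, edgeR adjusted p 7.33e-05), at 0.207 times the level of the other barcodes, and its exons overlap those of Gm28845 on the same strand. In type A cells Grem1 changed by 3.52 and D630023F18Rik by 2.93.

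Podxl, a podocyte surface protein, was at 11.6 to 22.1 CPM in control and 0.372 to 2.12 in DN at 12 weeks, with no overlap, and changed by -2.21 ± 0.24 over both ages (edgeR adjusted p 7.33e-05). The other barcodes held 136 CPM on average. The podocyte markers Podxl and Synpo summed to 15.1 to 33.9 CPM in type B cells of control and 1.86 to 4.24 of DN at 12 weeks. In the other barcodes they summed to 153 to 283 and 72.9 to 140 CPM. Podxl itself is part of these sums, so they are not a separate observation. Kap, an androgen-regulated protein of the proximal tubule, changed by -1.84 ± 0.32 and Ugt2b38, a glucuronosyltransferase, by -1.61 ± 0.18, both at under 0.04 times the level elsewhere. In type A cells Podxl, Kap and Ugt2b38 changed by -0.14, -1.94 and -1.55. The 4 proximal tubule markers in type B summed to 22.8 to 60.1 CPM in control and 6.25 to 39.5 in DN at 6 weeks, and to 34.2 to 43.9 and 28.8 to 43.7 at 12 weeks, and Cubn, used in the rule, was at 0. What part RNA from those cells had in these results was not tested.

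Other called genes of the same kind were Npy, neuropeptide Y (-3.57 ± 0.44), Npy6r, a receptor for it (-2.33 ± 0.37), the non-classical class I gene H2-Q7 (-2.45 ± 0.33), the cell cycle inhibitor Cdkn1c (-1.05 ± 0.16), lipoprotein lipase Lpl (-1.002 ± 0.11), the esterase Ces1f (-2.07 ± 0.33) and Keg1 (-1.39 ± 0.22). Higher ones were the cell cycle inhibitor Cdkn1a (1.09 ± 0.17), uroguanylin, Guca2b (1.11 ± 0.17), the membrane repair protein Myof (0.71 ± 0.10) and the lipase Pla2g7 (1.11 ± 0.16). In type A cells the lower genes changed, in the order given, by -3.09, -1.97, -0.69, -0.78, -0.33, -1.74 and -1.33. The higher ones changed there by 0.59, 0.21, 0.66 and 0.57. Dapl1 (1.37 ± 0.21) was higher too and was 1.93 times as abundant in type B as elsewhere, and it changed by 2.15 in type A cells. The adjusted p of these 12 genes ranged from 0.000107 to 0.00633 in edgeR's quasi-likelihood test with Benjamini-Hochberg adjustment. Gpx3, a secreted glutathione peroxidase, was at 854 to 3516 CPM in control and 1528 to 3809 in DN and changed by 0.63 ± 0.11 in type B (edgeR adjusted p 0.011) and by 1.32 in type A.

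By age, 3 of 12093 genes (0.0248%) were called at 6 weeks and 45 (0.372%, 23 higher and 22 lower) at 12 weeks. At 6 weeks these were Fetub, Ugt2b38 (-2.02, edgeR adjusted p 0.00505) and Npy (-3.78, edgeR adjusted p 0.0455). The calls at that age ended without any of 3 libraries for Ugt2b38 and any of 9 for Npy. At 12 weeks the leading higher genes beyond those above were Pde10a (3.46), Tceal3 (3.12) and Idh1 (1.59), and the leading lower ones H2-Q6 (-4.74), Sema3g (-3.80), Nes (-3.09) and Rhpn1 (-4.15), with adjusted p of 0.000144 to 0.0289 in edgeR's quasi-likelihood test. Sqle (-1.12) was called at that age too. Scg5, Umod and Idh1 lost the call at 12 weeks without any of 6 libraries, Nes of 7, Sema3g and Rhpn1 of 5, Sqle of 4, Tceal3 and Npy of 2, and Qpct and Cdkn1a of 1. Of the 23 higher genes 4 (Fetub, Qpct, Scg5 and Fam19a1), and of the 22 lower genes 1, were at least as abundant in type B as elsewhere, while 4250 of all 12093 tested genes were. With the replicate block 31 genes were called at 6 weeks and 197 at 12 weeks. The difference between the ages was itself tested: 0 of 12093 genes (0%) differed in their DN effect by edgeR, with 177 under 0.05 unadjusted, 2 called by DESeq2 and 3 with the replicate block, so the larger count at 12 weeks is not shown to be a larger effect. Between ages over both genotypes 0 genes (0%) were called by edgeR, with 756 under 0.05 unadjusted and 14 called by DESeq2. The DN effect differed between females and males for 0 genes (0%) by edgeR, with 127 under 0.05 unadjusted, 1 called by DESeq2 and 2 with the replicate block.

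Whether DN acted on type B cells in the way it acted on their type A neighbours was tested in the same libraries. The DN effect differed between the types for 457 of 12916 genes (3.54%), 208 with a higher and 249 with a lower change in type B. Pdzk1ip1, a small membrane protein, averaged 419 CPM in control and 417 in DN type B cells but 437 and 268 in type A (difference 0.59 ± 0.06, edgeR adjusted p 2.03e-06). Rgs2, a regulator of G protein signalling, averaged 307 and 270 CPM in type B and 129 and 61.9 in type A (0.79 ± 0.12, edgeR adjusted p 0.00029). Insrr, the type B marker, was part of the group, with means of 321 and 306 CPM in type B and 21.7 and 13.3 in type A (0.46 ± 0.11, edgeR adjusted p 0.0199). Its change in type B alone was not called, as given above, and 11.8% of type A cells had a UMI of it. The part of type B RNA in the type A level of Insrr was not tested. Other leading genes with a higher change in type B were Anxa2 (0.95), Hist1h1c (0.78), Phlda1 (0.55), Guca2b (0.89), Prss22 (2.82), Cst3 (0.36), Ahnak (0.66) and Cd81 (0.35), with edgeR adjusted p of at most 0.00029.

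The mitochondrially encoded genes make up the mitochondrial percent, which the rule for members limits, so their difference is a description with no test. Their change in DN was lower in type B than in type A for 13 of 13, with a median of -0.26 against 0.00 over all genes. The difference was -0.31 for mt-Co3, -0.33 for mt-Co2, -0.30 for mt-Nd1, -0.28 for mt-Atp6 and -0.29 for mt-Co1. Of the 13, 11 are counted among the 457 genes above. The median DN change of all 13 was -0.02 in type B and 0.22 in type A cells. Of 91 nuclear oxidative phosphorylation genes 10 were called, all lower in type B relative to type A (Cox7a1, Uqcrc2, Ndufab1, Uqcrfs1, Ndufb9, Atp5g3, Uqcrc1, Ndufa8, Sdhd and Atp5f1, -0.39 to -0.17), with a list median of -0.11. Of these, Cox7a1 and Uqcrc2 kept the call without each library in turn, Ndufab1 lost it without any of 2, and the others without any of 7 to 10. The mitochondrial percent of type A cells was higher in DN, as given above, and its part in the differences of the nuclear genes was not tested.

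Against 3.54% of all genes called in this difference, 4 of 28 transport genes tested were called, all lower in type B relative to type A: Fxyd2, a sodium pump regulator (-0.58), Clcn5 (-0.44), Car2 (-0.26) and Car15 (-0.46). Fxyd2 averaged 4780 CPM in control and 4836 in DN type B cells, and 2045 and 2966 in type A. Of 21 pump subunits 2 were called lower, Atp6v1a (-0.21) and Atp6v1e1 (-0.19). Of 23 genes of the hormone receptor list, which also holds the steroid-inactivating enzyme Hsd11b2, 6 were higher, namely Igf1r (0.53), Ptger1 (0.71), Insrr, Hsd11b2 (0.36), Avpr2 (0.48) and Adora1 (0.78), and 3 lower, namely Ptger3 (-0.59), Oxgr1 (-0.37) and Avpr1a (-0.26). Hsd11b2, Avpr2 and Ptger1 are genes that principal cells hold in excess (3010, 242 and 97.5 CPM there), and the principal cell markers in type A sums were 1562 to 3266 CPM in control and 1282 to 1709 in DN at 12 weeks. The part of principal cell RNA in these was not tested. Of 21 immediate early genes Gadd45b (0.77), Junb (0.48) and Klf6 (0.44) were higher. The metallothioneins Mt1 (-0.77) and Mt2 (-0.88) and Spp1 (-0.52) were lower, and their changes in type A were 0.70, 0.66 and 1.00. Pfkl (0.31), Pfkp (0.26), Notch2 (0.60) and H2-K1 (0.22) were higher, and Dmrt2 (-1.18), Gng11 (-0.93) and Steap2 (-0.55) lower, all by edgeR's quasi-likelihood test with Benjamini-Hochberg adjustment. Dmrt2 averaged 2.80 CPM in type B and 190 in type A, and the part of type A RNA in its type B level was not tested. Many of these calls ended when 1 library was left out: Pfkp lost its call without any of 13 libraries, Adora1 and Klf6 of 10, Avpr2, Avpr1a, H2-K1 and Car15 of 9, Dmrt2 of 8, Hsd11b2 and Notch2 of 7, Ptger1 of 5, Insrr of 4, Msmo1 of 3, Car2 of 2 and Pfkl of 1.

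Between sexes 97 of 12093 genes (0.802%) were called in type B cells, 33 higher and 64 lower in females. The X-linked Xist, Tsix, Kdm6a and Eif2s3x and the Y-linked Eif2s3y, Ddx3y, Uty and Kdm5d were among them. Xist was at 815 to 1058 CPM in females and at most 0.443 in males, so it matched the labels in every library. Exons of Xist and Tsix overlap on opposite strands. Of the other leading genes higher in females, Ripor2 (0.96 ± 0.14), Fam46c (0.77 ± 0.12) and Pamr1 (0.91 ± 0.15) were 2.47, 5.15 and 2.63 times as abundant in type B as elsewhere, and Npr1, a natriuretic peptide receptor (0.99 ± 0.16), 0.485 times. A630001G21Rik (0.96), C130026I21Rik (1.75) and Pdk4, a kinase that restrains pyruvate use (1.55), were also higher, with edgeR adjusted p of 0.00183 to 0.0167 for these 7. Tshr was higher in females too (0.51 ± 0.11, edgeR adjusted p 0.0336), a call that ended without any of 7 libraries. Pdk4 lost its call without any of 3, and Ripor2, Fam46c, Pamr1, Npr1 and C130026I21Rik each without 1. Lower in females were Kap (-4.50), Ugt2b38 (-4.40), Ces1f (-6.38), Acsm2 (-1.92), Cyp2e1 (-2.92) and Cyp4b1 (-3.47), all at under 0.05 times the level of the other barcodes. The proximal tubule markers in type B summed to 6.25 to 41.2 CPM in females and 28.8 to 60.1 in males, and the part of such RNA was not tested.

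The nuclear oxidative phosphorylation genes were lower in females by the median (-0.29, against 0.00 over all genes), with 2 of 90 called, Ndufaf6 (-0.58, edgeR adjusted p 0.0469) and Cox6a1 (-0.55, edgeR adjusted p 0.0419), and 59 under 0.05 unadjusted, where over all genes 97 of 12093 (0.802%) were called and 1795 were under 0.05 unadjusted. Ndufaf6 lost its call without any of 11 libraries and Cox6a1 without any of 12. Of the mitochondrially encoded genes, whose UMIs the rule for members limits, mt-Nd6 differed by -0.89, a value given without a test. Cox6a1 went with the barcode set: it was at 1627, 1609, 1465 and 1859 CPM in the 4 female libraries of the smaller set, at 425 to 597 CPM in the other 4 females and at 505 to 804 CPM in males. Without the barcode set term its difference was 0.69 in the other direction (edgeR adjusted p 0.365).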

How the data were processed

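The data were 3 prime droplet libraries, 1 per mouse. The authors deposited raw UMI counts per gene and barcode, made with Cell Ranger 3.0.2 on mm10 per the labels and not normalized; whether strand was used is not given in the sources used here. Counts of members were summed per library and given as CPM. Genes were tested with edgeR 4.0.16 (R 4.3.3; quasi-likelihood, TMM, filterByExpr, Benjamini-Hochberg at 0.05), with sex within age, genotype within age and barcode set as terms, on all 16 libraries; the 7 rule genes were left out. The type B minus type A test had library as a block. The p-values measure the spread between these mice, and intervals cover counting error only. The 2 barcode sets were found from shared barcodes (a limit set after seeing the data) and are in no label; all males were in 1 set. Shares were tested by exact permutation within sex and age. The main fit and the exact permutations did not pair samples by replicate number. Such pairs were used only in the replicate block and in the pairwise comparison of shares. They were tried since differences between replicates of the 2 genotypes correlated by 0.515, 0.527, 0.376 and 0.329 (across genes). In females number 1 was also the smaller barcode set. Members of the type A class had at least 3 UMIs of Slc4a1 plus Aqp6 and more than of Slc26a4. Doublets were treated only through the rule. Coordinates are from GENCODE M21 (GRCm38), which held 31011 of 31053 features. Named genes were the 3 other markers, the transport list, up to 10 called genes a direction by p and called list members. Col24a1, Umod, Lsamp, Chl1, Ptges, Krt18, Ctsc, Tshr, Gpx3, Sqle over both ages, Idi1, Msmo1, Mvk, mt-Nd6 and the genes given for levels alone were chosen after their values were seen. Members and lists were chosen with earlier results of these data known. The study itself tested single cells. Alternatives were DESeq2 1.42.0 and those of the closing section. Some genes, members of the transport list among them, are not reported here.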

Additional observations from a re-analysis of the deposited data

Results flagged for a closer look

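The DN effect differed between type B and type A cells for 457 genes, by a test of the difference itself in the same libraries (edgeR's quasi-likelihood test). The count ran from 249 to 500 when 1 library was left out. It was 249 without control male 6 weeks replicate 2, 256 without DN female 12 weeks replicate 2, 283 without DN male 12 weeks replicate 1 and 301 without DN male 6 weeks replicate 1.

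The median mitochondrial percent of type B minus type A cells of a library differed by -4.00 percentage points, DN minus control, with no overlap between the 8 libraries of each genotype. It was -4.48 at 6 weeks, -3.52 at 12 weeks and -4.27 in the 12 libraries of the larger barcode set. The separation was seen before the measure was chosen, and the rule for members limits mitochondrial percent, so these are values with no test.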

How the results depend on the processing

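Shallow members, 4 libraries of another barcode set that are all female, and 2 mice a group limit these results. Counts of called genes are given in the order DN over both ages, DN at 6 weeks, DN at 12 weeks, 12 minus 6 weeks in the DN effect, sex, age, and the DN effect in females minus males. Without a filter on low counts they were 347, 96, 248, 40, 573, 144 and 18, and the type B minus type A count was 745. By DESeq2 the DN counts were 145 over both ages and 7 at 6 weeks, and the others that moved by over 1.5 times were 2 for the age difference, 195 for sex, 14 for age and 1 for females minus males. With no barcode set term the DN counts were 30, 1 and 11. With at most 20% mitochondrial UMIs they were 15, 0 and 12, and the sex count was 22. In the 12 libraries of the larger barcode set the younger mice gave 1 gene and the older 14, and with control male 6 weeks replicate 2 also left out both ages gave 51. Without members holding a UMI of Slc4a1 or Aqp6 the counts were 0 at 6 weeks, 26 at 12 weeks, 1 for the age difference and 1 for age. Without members holding RNA of other tubules they were 0 at 6 weeks, 2 for the age difference, 157 for sex and 2 for age. With at least 5 Slc26a4 UMIs they were 2 for the age difference and 3 for age. Testing only genes at least as abundant in type B gave 19, 1, 2, 29 for sex, 1 for age and 258 for type B minus type A.

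With the replicate block the counts were 361, 31, 197 and 3, with 2 for females minus males. In these comparisons the block ended no call of a named gene, and it changed no call of a share. It was not run for sex, age or type B minus type A.

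Leaving out 1 library gave 50 to 93 genes for DN over both ages, 0 to 5 at 6 weeks, 19 to 49 at 12 weeks, 0 to 1 for the age difference, 24 to 174 for sex, 0 to 6 for age, 0 to 3 for females minus males and 249 to 500 for type B minus type A. The DN count fell to 54 without control male 6 weeks replicate 1, 52 without DN female 6 weeks replicate 2, 50 without DN female 12 weeks replicate 2 and 51 without DN male 6 weeks replicate 2. At 12 weeks it was 21, 26 and 24 without control female replicate 2 and control male replicates 1 and 2, and 21, 19, 20 and 29 without DN female and DN male replicates 1 and 2. The sex count was 24 without control female 6 weeks replicate 2, 40 and 58 without DN female replicate 2 at 6 and 12 weeks, and 174 without control male 12 weeks replicate 2. The difference in the type B share of filtered barcodes was -1.83 to -1.04 points and that in the type B share of type A plus type B cells -6.42 to -3.85. The mitochondrial difference between types was -4.36 to -3.61.

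The difference in the type B share of type A plus type B cells turned to 11.2 points with at most 20% mitochondrial UMIs, and Cox6a1 between sexes to 0.69 with no barcode set term. Over the named genes 3017 of 3582 repeats kept the call or its absence, 564 lost the call and 1 turned. Direction was followed only where a call was made. Hmx2, which was not called, ran from -0.12 to 0.08 in DN over both ages with 1 library left out. The cause of the other changes was not tested.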
